A study of Mus musculus with 6 samples.

Results

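The genes described here are 30 enzymes and enzyme subunits of the tricarboxylic acid (TCA) cycle, of the reactions that refill it (anaplerosis) and of the shuttles that carry malate, aspartate and reducing equivalents between mitochondria and cytosol. They were chosen by symbol from the 23284 genes counted, all 30 were found, and all 30 had enough counts to be tested. RNA-seq libraries of isolated pancreatic islets from mice aged 12 weeks were compared between 2 groups, both of the strain that the labels give as C56BL/J. The knockout group was Neurod1-floxed/floxed; Rip-Cre+, so both Neurod1 alleles carried loxP sites and Cre recombinase was driven by the rat insulin promoter, which is active in beta cells. The control group was Neurod1-floxed/floxed without Cre, and Cre expression and Neurod1 deletion therefore cannot be told apart. There were 3 knockout libraries (4, 5 and 6) and 3 control libraries (7, 10 and 16). Whether each came from its own animal is not in the labels, so p-values cover only the spread between these samples.

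Neurod1, which encodes a transcription factor of the basic helix-loop-helix class, was at 28.4, 29.8 and 31.3 CPM (counts per 1e+06 of a library, after TMM scaling) in knockout libraries 4, 5 and 6 and at 198, 177 and 141 CPM in the controls (libraries 7, 10 and 16). Total counts ranged from 12206393 to 20412435 per library. Summed counts of 9 beta cell markers, insulin genes included, took 13.4 to 14.7% of the knockout and 17.3 to 19.4% of the control libraries. The 6 alpha cell markers took 2.67 to 3.45% and 3.66 to 5.07%, without overlap. Both sums were thus large in every library, with Ins2 and Gcg as their largest parts. None of the 6 alpha markers had a positive log2 fold change, and 1 was called lower (16.7%, beside 12.6% of all genes tested). The lower beta sum came with Ins1 (-3.50, adjusted p = 1.27e-04): without it the other 8 genes took 13.1 to 14.1% of knockout and 12.8 to 14.1% of control counts, so the groups overlapped. Of the 9 beta markers 3 (Pdx1, Nkx6-1 and Slc2a2) were called higher and 2 (Ins1 and G6pc2) lower. Among markers of other cells, 16 acinar genes took 0.475 to 1.38% of knockout and 1.34 to 4.68% of control counts, which overlapped. Of these, 2 were called lower (12.5%, near the 12.6% of all genes tested). The 11 endothelial genes took 0.0637 to 0.0729% and 0.0962 to 0.0991%, without overlap, and 8 were called lower (72.7%). None of the markers of these 4 lists was at 0 in all libraries. Of the duct markers 4 of 7 were called lower (57.1%) and of the stellate and fibroblast markers 3 of 10 (30%). Of the 10 leukocyte entries 1 was called lower (10%), and Emr1 was entered there under 2 symbols. Of 4 delta and PP markers 1 was called higher and 1 lower (50% called). Of 7 Schwann and neuron markers 1 was higher and 2 were lower (42.9% called, beside 24.4% of all genes tested). Ribosomal RNA precursor Rn45s took 2.56%, 0.325% and 3.58% of counts (knockout 4, 5 and 6) and 0.396%, 1.69% and 0.637% (control 7, 10 and 16).

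The TCA cycle oxidises acetyl units to carbon dioxide in the mitochondrial matrix and passes their electrons to the respiratory chain. In beta cells pyruvate enters the cycle both through pyruvate dehydrogenase and, to an unusually large extent, through pyruvate carboxylase, which adds carbon to the cycle. Malate and citrate can then leave the mitochondria and be turned back into pyruvate or acetyl-CoA in the cytosol, with formation of NADPH, and the malate-aspartate shuttle returns the electrons of cytosolic NADH. These routes are known for coupling glucose metabolism to insulin secretion.

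Of the 30 members 11 were higher and 1 was lower in the knockout, and 18 did not pass (edgeR's quasi-likelihood test, Benjamini-Hochberg adjusted over all 14770 genes tested, threshold 0.05). The share called was 40% of the members, and 24.4% of all genes tested were called. By direction, 11.8% of all genes were called higher and 12.6% lower. The median log2 fold change of the members was 0.19, beside -0.01 over all genes tested, and 24 of the 30 members had a positive value, beside 49.0% of all genes. In 20 members the CPM of the 2 groups did not overlap, which also held for 42.0% of all genes tested. Because islets were measured in bulk, a change in the share of a cell type and a change in RNA per cell cannot be told apart. The 3 largest rises among the members were those of Fh1, Me1 and Mdh1, and the only fall was that of Ogdhl.

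**Figure D1:**
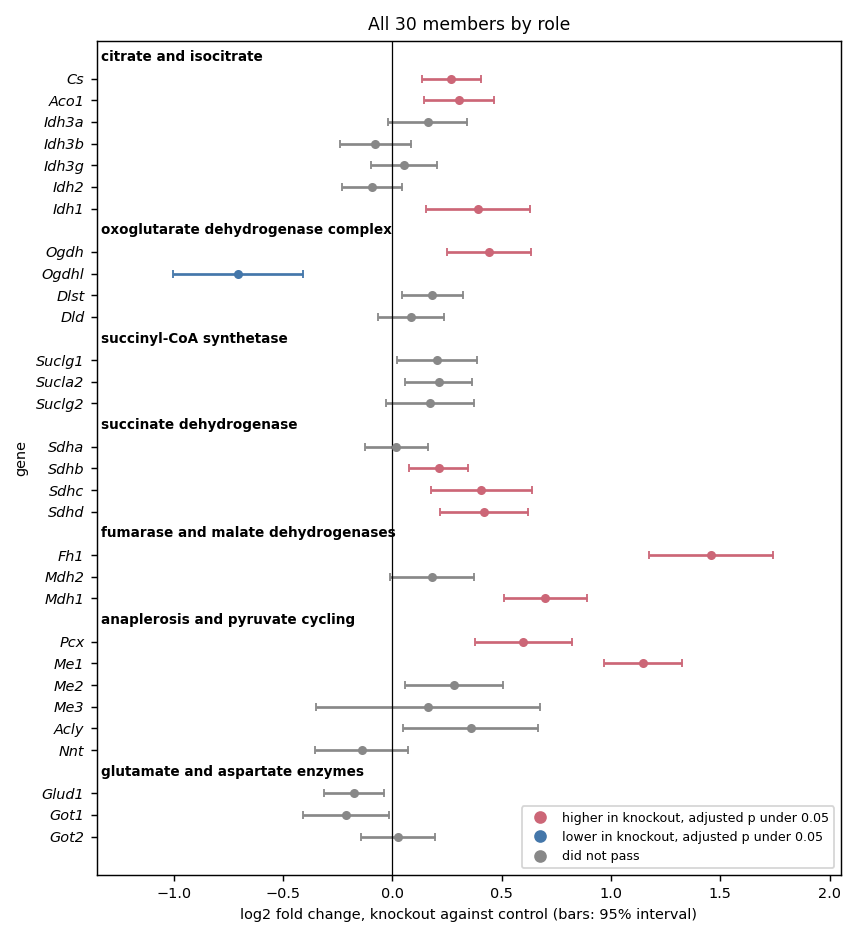
Log2 fold change of each of the 30 genes, knockout against control, by role (points, with 95% intervals from the edgeR fit as bars). Fh1 at 1.46 and Me1 at 1.15 stand furthest to the right, Ogdhl at -0.70 is the only called gene to the left of 0, and the 18 grey genes, which did not pass, lie between -0.21 and 0.36.

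The windows around the annotated start sites of these 4 genes are shown because the genes had the 3 largest rises and the only fall, and because Neurod1 and its partner proteins bind the E-box CANNTG, which reads the same on both strands. Each window runs from 250 bases before to 50 bases after a RefSeq start site in assembly GRCm38.p6, 5′ to 3′ on the gene's strand, with every CANNTG in capitals. The submitters' processing notes name another build, mm9, so these coordinates do not refer to the count files. Fh1 lies at chr1:175625586-175625885, minus strand, the 2 Me1 windows at chr9:86687228-86687527, minus strand and chr9:86695865-86696164, minus strand, Mdh1 at chr11:21571885-21572184, minus strand and Ogdhl at chr14:32321769-32322068, plus strand.
Fh1: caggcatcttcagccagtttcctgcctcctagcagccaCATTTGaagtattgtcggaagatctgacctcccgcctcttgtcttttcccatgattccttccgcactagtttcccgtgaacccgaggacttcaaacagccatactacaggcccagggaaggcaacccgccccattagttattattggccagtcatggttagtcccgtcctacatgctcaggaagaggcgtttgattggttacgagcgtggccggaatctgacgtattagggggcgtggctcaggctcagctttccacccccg
Me1, window 1: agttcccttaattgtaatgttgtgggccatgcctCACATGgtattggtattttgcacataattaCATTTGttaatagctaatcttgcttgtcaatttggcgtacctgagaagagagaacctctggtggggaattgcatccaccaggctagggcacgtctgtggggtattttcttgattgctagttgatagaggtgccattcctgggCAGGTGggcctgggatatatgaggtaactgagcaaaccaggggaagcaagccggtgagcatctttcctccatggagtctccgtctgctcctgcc
Me1, window 2: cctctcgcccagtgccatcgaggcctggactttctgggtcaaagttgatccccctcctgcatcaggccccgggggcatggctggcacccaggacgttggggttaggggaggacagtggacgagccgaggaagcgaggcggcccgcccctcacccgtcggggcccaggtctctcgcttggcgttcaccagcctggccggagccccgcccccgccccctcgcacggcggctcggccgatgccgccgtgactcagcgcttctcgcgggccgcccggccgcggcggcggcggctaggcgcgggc
Mdh1: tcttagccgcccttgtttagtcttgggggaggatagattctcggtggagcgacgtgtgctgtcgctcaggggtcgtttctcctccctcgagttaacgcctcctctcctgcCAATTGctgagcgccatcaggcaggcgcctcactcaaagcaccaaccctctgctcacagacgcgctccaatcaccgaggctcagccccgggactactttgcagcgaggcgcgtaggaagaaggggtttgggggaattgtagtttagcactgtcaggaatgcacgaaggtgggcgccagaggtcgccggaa
Ogdhl: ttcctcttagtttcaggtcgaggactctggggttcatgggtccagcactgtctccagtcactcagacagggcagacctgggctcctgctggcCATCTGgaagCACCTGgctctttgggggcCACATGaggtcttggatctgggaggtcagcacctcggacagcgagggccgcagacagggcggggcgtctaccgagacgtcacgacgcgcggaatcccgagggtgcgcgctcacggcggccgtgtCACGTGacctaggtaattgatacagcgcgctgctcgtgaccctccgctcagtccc
Ogdhl held 4 E-boxes, Fh1 and Mdh1 held 1 each, and Me1 held 3 in window 1 and 0 in window 2. At least 1 CANNTG occurred in 72.3% of the 32851 promoter windows of the RefSeq table, so its presence sets none of these genes apart. The form CAGATG, searched on both strands (CATCTG on the other), was in the Ogdhl window and in 17.2% of all windows, and CACGTG, the form bound by factors such as Myc and USF, was in the Ogdhl window and in 7.15% of all windows. Of the 30 members 26 had a window, and of these 21 held CANNTG, 7 held CAGATG and 3 (Ogdh, Ogdhl and Pcx) held CACGTG in at least 1 window. Counted in the same way, per gene over its windows, the shares over all 27025 symbols of the table were 75.0%, 19.2% and 8.09%. A match describes letters only and is not a bound site.

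At the entry of the cycle, citrate synthase and the cytosolic enzymes Aco1 and Idh1 were modestly higher, and none of the 4 genes of mitochondrial isocitrate dehydrogenases passed. Cs, which condenses acetyl-CoA with oxaloacetate, had 114, 115 and 113 CPM in the knockouts (libraries 4, 5 and 6) and 95.7, 90.7 and 96.9 CPM in the controls (libraries 7, 10 and 16). All 3 knockout libraries lay above all controls, and the rise was 1.21-fold (log2 fold change 0.27, SE 0.06, adjusted p = 0.0121). Aco1, the cytosolic aconitase that also serves as an iron-regulated RNA-binding protein, had 68.7, 74.5 and 67.6 CPM in knockout and 59.6, 54.5 and 56.6 CPM in control libraries and rose 1.24-fold (0.30, SE 0.07, adjusted p = 0.0139). Its groups did not overlap either, and both Cs and Aco1 missed the threshold when control library 10 was left out (adjusted p = 0.0549 and 0.0598).

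Idh1, the cytosolic NADP-dependent isocitrate dehydrogenase, had 59.4, 73.8 and 57.7 CPM in knockout and 51.7, 48.9 and 44.9 CPM in control libraries. Knockout library 5 was the highest and control library 16 the lowest, with no overlap (0.39, SE 0.10, adjusted p = 0.0267). The call was lost without knockout library 5, control library 10 or control library 16 (adjusted p up to 0.0868). The log2 fold change in these fits was 0.27, 0.39 and 0.34 in that order, so it did not fall without control library 10. Idh2, its mitochondrial NADP-dependent counterpart, had 114, 111 and 112 CPM in knockout and 122, 123 and 115 CPM in control libraries, with every knockout library slightly below every control, and it did not pass (-0.09, 95% interval -0.23 to 0.04, adjusted p = 0.296). None of the 3 subunits of the NAD-dependent enzyme that drives the cycle passed, Idh3a at 0.16 (95% interval -0.02 to 0.34), Idh3b at -0.08 (-0.24 to 0.08) and Idh3g at 0.05 (-0.10 to 0.20). Their CPM overlapped between the groups in all 3 cases.

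The 2 alternative E1 subunits of the 2-oxoglutarate dehydrogenase complex moved in opposite directions. Ogdh, the E1 subunit found in most tissues, had 423, 431 and 368 CPM in knockout and 311, 293 and 297 CPM in control libraries, a 1.36-fold rise (0.44, SE 0.08, adjusted p = 0.00658). Ogdhl, its paralog known mainly from brain, had 105, 121 and 118 CPM in knockout and 166, 167 and 227 CPM in control libraries, a 1.63-fold fall (-0.70, SE 0.13, adjusted p = 0.00646). Neither gene had overlapping groups. Control library 16 was the highest for Ogdhl and also held the largest share of alpha cell marker counts (5.07%), and the part of that share in the value was not tested. Without control library 16 the log2 fold change of Ogdhl was -0.54 (adjusted p = 0.00536). The 2 other subunits did not pass: Dlst, the E2 succinyltransferase, was at 0.18 (95% interval 0.05 to 0.32, adjusted p = 0.0580) with 125, 133 and 128 CPM in knockout and 117, 112 and 111 CPM in control libraries, and Dld, the E3 subunit shared with pyruvate dehydrogenase, was at 0.08 (-0.07 to 0.24). Dlst was higher in each knockout library than in each control library, while Dld overlapped.

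Succinyl-CoA synthetase makes ATP or GTP depending on which beta subunit joins the shared alpha subunit Suclg1. All 3 genes had positive differences of similar size and none passed: Suclg1 was at 0.20 (adjusted p = 0.1), the ATP-forming subunit Sucla2 at 0.21 (adjusted p = 0.0518) and the GTP-forming subunit Suclg2 at 0.17 (adjusted p = 0.187). Sucla2 lay just outside the threshold, and it passed with DESeq2's size factors (adjusted p = 0.0457). Its groups did not overlap (83.8, 81.3 and 75.3 CPM in knockout and 69.7, 71.6 and 66.3 CPM in control libraries). Of the 100-base stretches of Suclg2 11.9% also occur in another annotated gene, so its value is uncertain.

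Succinate dehydrogenase, which is also complex II of the respiratory chain, has a flavoprotein subunit (Sdha), an iron-sulphur subunit (Sdhb) and 2 membrane anchors (Sdhc and Sdhd). The anchors and Sdhb were higher in the knockout, whereas Sdha did not pass. Sdhd had 122, 137 and 118 CPM in knockout and 85.0, 95.1 and 102 CPM in control libraries (0.42, SE 0.09, adjusted p = 0.0101). Sdhc had 113, 87.1 and 106 CPM in knockout and 76.1, 72.1 and 82.6 CPM in control libraries (0.41, SE 0.10, adjusted p = 0.0200), with knockout library 5 nearest to the controls. Sdhb had 62.3, 60.9 and 62.3 CPM in knockout and 53.2, 53.2 and 53.7 CPM in control libraries, a small difference with very little spread within a group (0.21, SE 0.06, adjusted p = 0.0305). All 3 had groups without overlap. Sdha had 258, 252 and 254 CPM in knockout and 254, 251 and 248 CPM in control libraries, and its difference of 0.02 had a 95% interval of -0.13 to 0.17. Leaving out knockout library 4 or control library 10 ended the call of Sdhc (adjusted p up to 0.0783), and Sdhb missed the threshold when any 1 library was left out (highest adjusted p = 0.0940).

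Fumarase had the largest change of all members. Fh1, which hydrates fumarate to malate and acts in both mitochondria and cytosol, had 179.6, 188 and 136 CPM in the knockouts (libraries 4, 5 and 6) and 59.2, 58.7 and 65.5 CPM in the controls (libraries 7, 10 and 16). The lowest knockout library, number 6, lay far above the highest control, number 16, and the mean went from 61.1 ± 3.77 CPM in control to 168 ± 28.1 CPM in knockout (SD, n = 3 each). The rise was 2.75-fold (log2 fold change 1.46, SE 0.12, adjusted p = 1.61e-04 by edgeR), and with any 1 library left out the log2 fold change lay between 1.37 and 1.60.

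Malate dehydrogenase showed a rise in its cytosolic form. Mdh1, the cytosolic enzyme of the malate-aspartate shuttle, had 369.6, 358 and 338 CPM in knockout and 224, 199 and 233 CPM in control libraries, with no overlap and a 1.62-fold rise (0.70, SE 0.08, adjusted p = 7.20e-04). Mdh2, the mitochondrial enzyme that closes the cycle, had 162, 161 and 143 CPM in knockout and 129.8, 131 and 149.9 CPM in control libraries. Knockout library 6 lay below control library 16, and Mdh2 did not pass (0.18, 95% interval -0.01 to 0.37).

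Genes of anaplerosis and of pyruvate cycling included 2 further rises. Pcx, pyruvate carboxylase, had 256, 304 and 293 CPM in knockout and 173, 183 and 208 CPM in control libraries, a 1.51-fold rise without overlap (0.60, SE 0.10, adjusted p = 0.00305). Me1, the cytosolic malic enzyme that turns malate into pyruvate and forms NADPH, had 44.2, 44.1 and 45.5 CPM in knockout and 19.8, 21.6 and 18.9 CPM in control libraries. The 3 knockout libraries lay close together and the gap to the controls was wide, a 2.21-fold rise (1.15, SE 0.08, adjusted p = 4.29e-05). Of the 100-base stretches of the longest annotated Me1 transcript 17.2% also occur in transcripts of 3 other annotated genes, with the counting of such reads not given in the sources used here, and the Me1 value carries that uncertainty.

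The mitochondrial malic enzymes did not pass. Me2, the NAD-dependent form, was at 0.28 (95% interval 0.06 to 0.51, adjusted p = 0.0701), with 24.4, 25.3 and 25.0 CPM in knockout and 22.5, 20.5 and 18.3 CPM in control libraries and no overlap. Me3, the NADP-dependent form, was the least abundant member at 2.93 ± 0.436 CPM in control and 3.30 ± 0.398 CPM in knockout (SD, n = 3 each), and its interval was correspondingly wide (0.16, -0.35 to 0.67). On an annotated strand opposite to Me3 lies A230065N10Rik, with 391 shared exon bases, with the use of strand not given in the sources used here.

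Acly, which splits exported citrate into acetyl-CoA and oxaloacetate, was the most abundant member and held 36.1 to 43.8% of the summed CPM of the 30 genes in a library. It had 1923, 2666 and 1932 CPM in knockout and 1769, 1691 and 1623 CPM in control libraries. Every knockout library was above every control, but library 5 was far above the other 2 and the gene did not pass (0.36, SE 0.14, adjusted p = 0.0868). Without library 5 the log2 fold change was 0.19 (adjusted p = 0.214), and on all libraries DESeq2 called the gene (0.38, adjusted p = 0.0199). Library 5 was also the highest for Idh1, the lowest of the knockout libraries for Sdhc, and the knockout library with the least Rn45s, and the part of Rn45s in these values was not tested.

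Nnt, the mitochondrial transhydrogenase that makes NADPH from NADH, had 81.9, 76.9 and 68.9 CPM in knockout and 89.8, 86.7 and 74.3 CPM in control libraries. The groups overlapped and it did not pass (-0.14, 95% interval -0.35 to 0.07). The C57BL/6J strain is known to carry a deletion of several Nnt exons, and counts per gene do not show which exons were read.

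None of the 3 enzymes of glutamate and aspartate passed. Glud1, glutamate dehydrogenase, had 109, 106 and 109.6 CPM in knockout and 123, 126 and 117 CPM in control libraries, each knockout library below each control (-0.17, 95% interval -0.31 to -0.04, adjusted p = 0.0678). Got1, the cytosolic aspartate aminotransferase, also lay lower without overlap, at 31.3, 27.7 and 27.7 CPM in knockout and 32.5, 32.2 and 36.0 CPM in control libraries (-0.21, -0.41 to -0.02, adjusted p = 0.109). Got2, the mitochondrial aminotransferase, differed by 0.03 (-0.14 to 0.20), and 25.3% of its 100-base stretches and 3.59% of those of Glud1 occur in other annotated genes, so these values are uncertain. Glud1 passed as lower with upper-quartile factors (-0.20, adjusted p = 0.0390).

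**Figure D2:**
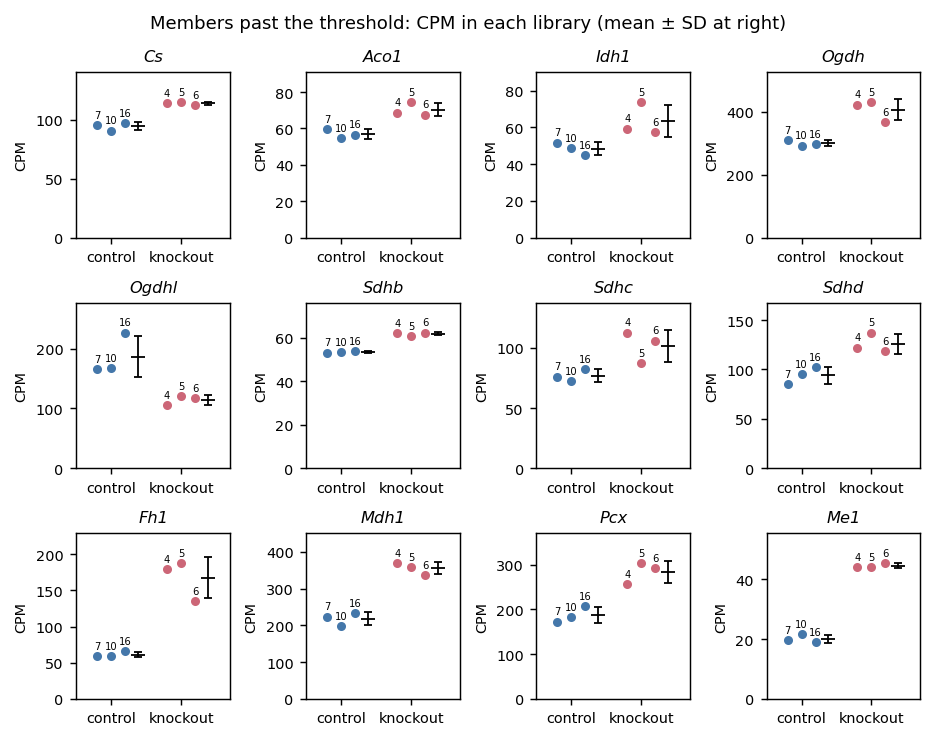
CPM (vertical axis, from 0) of the 12 members that passed the test, in each control (blue) and knockout (red) library, with library numbers beside the points and the mean ± SD in black. In every panel the 3 knockout points lie apart from the 3 control points, with little room in Sdhc (lowest knockout 87.1, highest control 82.6 CPM) and wide gaps in Fh1 and Me1.

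Read by compartment, a split made after the values were seen, 4 of the 6 cytosolic enzymes (Aco1, Idh1, Mdh1 and Me1) were higher, and of the other 2 Acly was at 0.36 and Got1 at -0.21. Of 23 mitochondrial members 6 were higher, 1 was lower and 16 did not pass. The share called was 66.7% of the cytosolic and 30.4% of the mitochondrial members, beside 24.4% of all genes tested. Fh1, which acts in both compartments and was higher, was counted in neither. The median log2 fold change was 0.37 over the cytosolic and 0.17 over the mitochondrial members, and the difference between the compartments was not tested.

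Per kilobase of exon, with lengths from GENCODE models of GRCm38 matched by symbol, Acly stood first in controls at 368 ± 15.9 CPM per kb (SD, n = 3). Mdh1 (103 ± 8.36) and Mdh2 (94.0 ± 7.74) followed in controls, within their spread of each other, then Sdha (86.7 ± 1.07) and Sdhd (76.5 ± 7.11). In the knockout Mdh1 was at 167 ± 7.67 and Mdh2 at 107 ± 7.44 CPM per kb. Ogdh and Ogdhl were at 67.5 ± 2.17 and 49.5 ± 9.18 CPM per kb in control and at 91.6 ± 7.71 and 30.4 ± 2.28 in knockout. Me1 was at 5.58 ± 0.381 CPM per kb in control, below Me2 at 7.75 ± 0.796, and at 12.4 ± 0.212 in knockout, above Me2 at 9.43 ± 0.171. These lengths come from another build than the counts, so they give the order of levels only approximately.

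Ratios of counts within a library, which do not depend on how libraries are scaled, were compared for 8 pairs of enzymes. In 5 pairs the 2 groups did not overlap. Each of these reached p = 0.1, the smallest value that an exact two-sided permutation test of 3 against 3 libraries allows (0.160 adjusted over the 8 pairs). No pair could therefore pass the threshold. Each of the 5 pairs includes a member called above, so the ratios are not independent of those calls. How often other gene pairs do not overlap was not examined. The ratio of Ogdhl to Ogdh was 0.248, 0.281 and 0.320 in the knockouts (libraries 4, 5 and 6) and 0.535, 0.572 and 0.765 in the controls (libraries 7, 10 and 16). Me1 to Me2 was 1.81, 1.75 and 1.82 in knockout and 0.878, 1.06 and 1.03 in the control. Mdh1 to Mdh2 was 2.28, 2.23 and 2.36 and 1.72, 1.52 and 1.56 in the same order. Every knockout library thus had less Ogdhl relative to Ogdh, and more of the cytosolic malic enzyme and malate dehydrogenase relative to the mitochondrial ones, than every control library.

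The ratio of Idh1 to Idh2 was 0.520, 0.665 and 0.515 in knockout and 0.423, 0.399 and 0.392 in the control. Pcx to Me1 was 5.79, 6.89 and 6.45 and 8.73, 8.46 and 11.0 in the same order, lower in every knockout than in every control library. Suclg2 to Sucla2, the balance of GTP-forming and ATP-forming synthetase transcripts, overlapped between the groups, at 0.297, 0.333 and 0.358 in knockout and 0.329, 0.310 and 0.374 in the control (mean log2 difference -0.04, exact permutation p = 0.8). Got1 to Got2 (-0.24, exact permutation p = 0.2, 0.267 adjusted over the 8 pairs) and Me3 to Me2 (-0.11, exact permutation p = 0.5) overlapped as well.

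**Figure D3:**
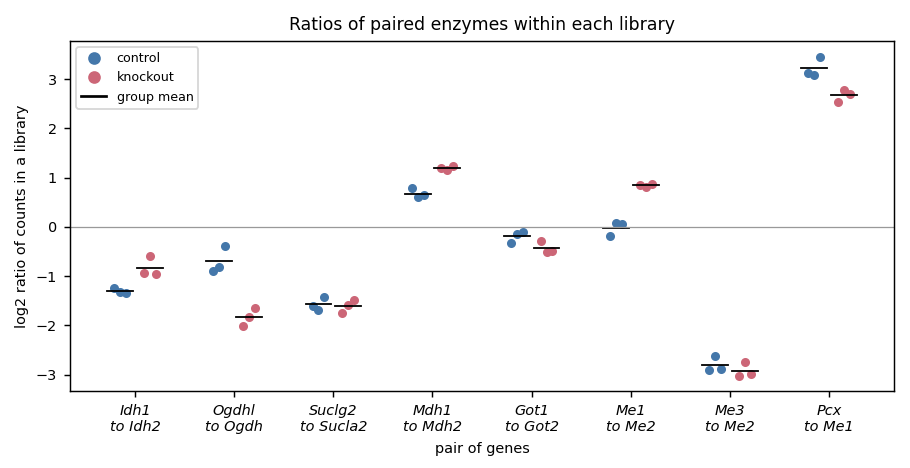
Log2 ratio of the counts of 2 genes (vertical axis) within each control (blue) and knockout (red) library for 8 pairs, with group means as black lines. The groups stand apart for Idh1 to Idh2, Ogdhl to Ogdh, Mdh1 to Mdh2, Me1 to Me2 and Pcx to Me1, and overlap for the other 3 pairs.

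Summed over the 30 members, libraries 4, 5 and 6 of the knockout had 5287, 6087 and 5142 CPM and libraries 7, 10 and 16 of the control had 4532, 4392 and 4492 CPM. Means were 5505 ± 509 CPM for knockout and 4472 ± 72.1 CPM for control libraries (SD, n = 3 each, exact two-sided permutation p = 0.1, the smallest possible). Without Acly, an alternative chosen after seeing the data, the sums were 3332 ± 109 and 2777 ± 85.2 CPM, also without overlap (exact permutation p = 0.1). With insulin genes, Rn45s and acinar markers left out of the library totals, the means were 6457 ± 496 and 5597 ± 55.2 counts per 1e+06 remaining counts.

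Genes that feed the cycle, carry its intermediates or lie close to it were taken from 5 lists. Of 47 such genes in the files 45 were tested, 7 were higher, 5 were lower and 33 did not pass (26.7% called, beside 24.4% of all genes). Their median log2 fold change was 0.05. By list, the calls of pyruvate entry were all rises, and those of glutamine and alanine entry were all falls.

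Of 13 genes of pyruvate entry 4 were higher (30.8%, beside 11.8% of all genes tested), 0 were lower and 9 did not pass. Pdp1, the phosphatase that activates pyruvate dehydrogenase, had 40.5, 35.5 and 33.6 CPM in knockout and 22.3, 21.1 and 18.0 CPM in control libraries (0.84, SE 0.11, adjusted p = 0.00113). Brp44, the older symbol of the mitochondrial pyruvate carrier subunit Mpc2, had 34.0, 34.1 and 33.0 CPM in knockout and 22.7, 24.0 and 27.2 CPM in control libraries (0.45, adjusted p = 0.00746). The pyruvate dehydrogenase E1 subunits Pdhb (0.29, adjusted p = 0.0188) and Pdha1 (0.26, adjusted p = 0.0274) were higher by smaller amounts. Both calls were lost in some fits that left out 1 library. That of Pdhb was lost without knockout 5 or control 7 or 10 (adjusted p up to 0.0764). That of Pdha1 was lost without knockout 4 or 5 or control 10 or 16 (adjusted p up to 0.103).

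Of 7 genes of glutamine and alanine entry 4 were lower (57.1%, beside 12.6% of all genes tested), 0 were higher and 3 did not pass. Glul, glutamine synthetase, is in this list although it forms glutamine rather than feeding it into the cycle. Its level was 109, 129 and 96.5 CPM in knockout and 355, 471 and 363 CPM in control libraries, a 3.55-fold fall (-1.83, SE 0.15, adjusted p = 1.27e-04). Gpt2, the mitochondrial alanine aminotransferase, had 14.4, 13.1 and 12.9 CPM in knockout and 25.4, 24.9 and 20.3 CPM in control libraries (-0.81, SE 0.11, adjusted p = 0.00167). Gls2, a glutaminase of low level here, was lower at -0.86 (adjusted p = 0.0259), and Gpt, the cytosolic alanine aminotransferase, passed by the narrowest margin (-0.49, adjusted p = 0.0499) and turned to 0.16 with the endothelial marker level as a covariate (adjusted p = 0.885). The call of Gls2 was lost without knockout 4 or 5 or control 7 or 10 (adjusted p up to 0.104), that of Gpt without knockout 5 or 6 or control 7 or 16 (adjusted p up to 0.144), and Gpt was called in 1 of 6 fits with another scaling, filter or tool. Endothelial marker sums were also lower in every knockout library, while acinar sums overlapped (0.475 to 1.38% and 1.34 to 4.68%). In a fit with the acinar marker level as a further term Glul was at -1.65 (adjusted p = 0.0217) and Gpt2 at -0.67 (adjusted p = 0.116). With the endothelial level instead, Glul was at -1.28 (adjusted p = 0.191) and Gpt2 at -0.94 (adjusted p = 0.264), so among these 4 values only Glul with the acinar level passed. The mean log2 levels used as terms overlapped between the groups for neither list, so these fits cannot separate marker level from genotype. Over all genes the fit with the endothelial level called only 76 higher and 43 lower, so a lost call there says little about a gene.

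Of 6 carriers tested, 1 was higher and 1 lower (33.3% called, beside 24.4% of all genes tested). Slc25a22, a mitochondrial glutamate carrier, was lower, with 42.4, 36.6 and 38.6 CPM in knockout and 50.8, 48.9 and 56.5 CPM in control libraries (-0.41, adjusted p = 0.00985). Slc25a13, an aspartate-glutamate carrier of the malate-aspartate shuttle, was higher (0.61, adjusted p = 0.0350) but missed the threshold without 4 of the 6 single libraries (knockout 5 or 6, control 10 or 16) and was at 0.08 with the endothelial level as a term. The other aspartate-glutamate carrier Slc25a12 (-0.06) and the oxoglutarate carrier Slc25a11 (0.08) did not pass. None of the 3 genes of the glycerol phosphate shuttle passed, the most abundant being Gpd2, the mitochondrial enzyme, at 0.27 (adjusted p = 0.256). Of 16 other genes of the cycle, of lipoate and of assembly, 2 were higher (12.5%, near the 11.8% of all genes tested). Acss2, which makes acetyl-CoA from acetate in the cytosol, had 72.5, 73.3 and 73.1 CPM in knockout and 42.5, 32.7 and 40.3 CPM in control libraries (0.92, SE 0.10, adjusted p = 3.28e-04). The other was Sdhaf2, an assembly factor of succinate dehydrogenase (0.35, adjusted p = 0.0185). Leaving out knockout library 5, control library 7 or control library 10 ended the call of Sdhaf2 (adjusted p up to 0.0747).

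**Figure D4:**
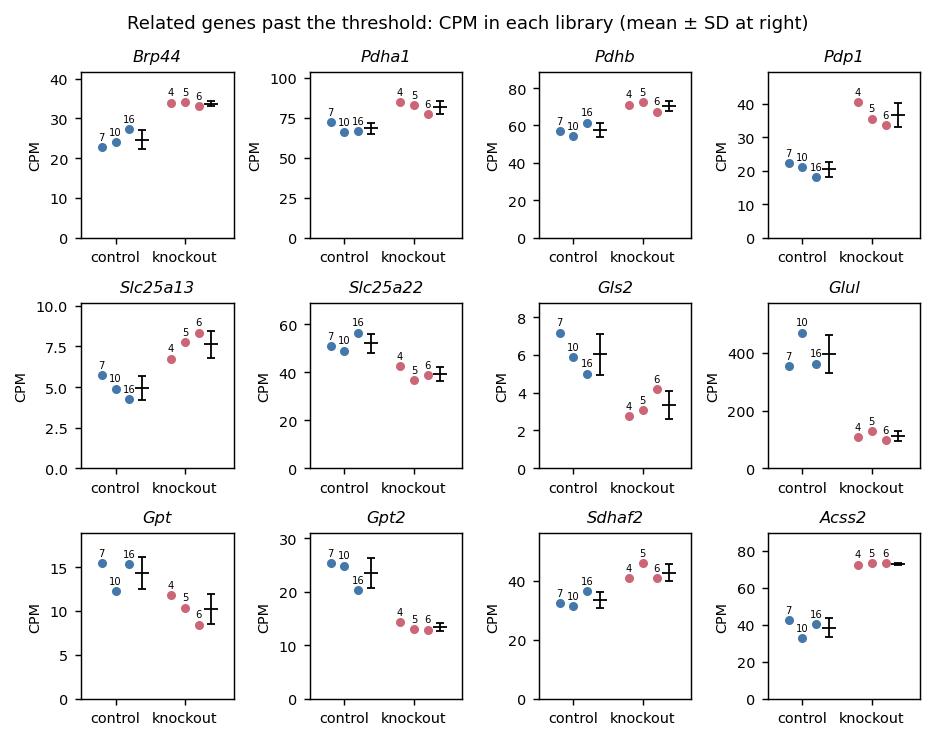
CPM (vertical axis, from 0) of the 12 related genes that passed the test, in each control (blue) and knockout (red) library, with the mean ± SD in black. Brp44, Pdha1, Pdhb, Pdp1, Slc25a13, Sdhaf2 and Acss2 lie higher in the knockout, and Slc25a22, Gls2, Glul, Gpt and Gpt2 lie lower.

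Of the 12 called members 7 (Ogdh, Ogdhl, Sdhd, Fh1, Mdh1, Pcx and Me1) passed in each of 12 further fits that used another scaling, filter, tool or estimation or left out 1 library. Without control library 10, 6 members were higher and 1 was lower. When the acinar marker level was a covariate 2 members passed, Fh1 (1.30, adjusted p = 0.0268) and Me1 (1.23, adjusted p = 0.00489). With the endothelial marker level as a covariate Fh1 passed (2.33, adjusted p = 0.00531) and the other 11 did not. The mean log2 CPM of the acinar markers was 6.62 to 7.80 in knockout and 8.25 to 9.39 in control libraries, and that of the endothelial markers 5.31 to 5.55 and 5.87 to 5.97, so neither level overlapped between the groups and neither can be told apart from genotype in full. Over all genes these fits called 618 and 76 genes higher and 445 and 43 lower. Ogdh (0.44 and 0.78), Ogdhl (-0.90 and -0.43), Mdh1 (0.56 and 0.94) and Pcx (0.59 and 0.72) kept their direction in both fits without passing, while Sdhc went from 0.41 to 0.09 and 0.25.

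**Figure D5:**
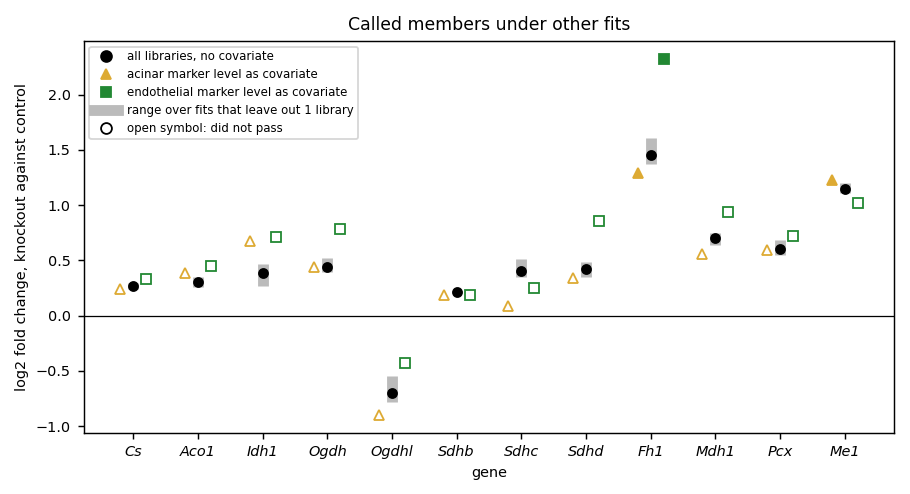
Log2 fold change (vertical axis) of the 12 called members in the fit on all libraries (black), with the acinar (yellow) or endothelial (green) marker level as a covariate, and over fits that leave out 1 library (grey bar, lowest to highest), with open symbols where a gene did not pass. Fh1 is filled in all 3 fits, Me1 is open with the endothelial level, and the other 10 are open with either covariate.

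Of the 30 members, 8 in the authors' deposited table had an adjusted p under 0.05, 7 of them higher and 1 lower in the knockout. The share of all genes under 0.05 in that table is not reported here, so this count has no background beside it. The adjusted p in the authors' deposited table was above the threshold for Cs (0.0731), Aco1 (0.0598), Idh1 (0.0733) and Sdhb (0.276), and for Fh1 it was 1.56e-09 and for Me1 9.36e-14. The log2 fold change in the authors' deposited table differed from that of the edgeR fit by at most 0.0231 for any member.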

How the data were processed

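The authors deposited raw counts per gene for 6 libraries and a table of their own comparison, with mean scaled counts per group (a signal), a fold change (ratio), its log2 value and p-values. The submitters' processing notes name bcl2fastq 1.8.4, TopHat2 2.1.0, Cufflinks 2.0.2, DESeq and the build mm9. Read counter, annotation, strand: not given in the sources used here. Libraries were grouped by their titles. Counts were analysed with edgeR 4.0.16 in R 4.3.3 (filterByExpr with minimum count 10 and minimum total count 15, TMM factors, robust quasi-likelihood F test, Benjamini-Hochberg adjustment over 14770 genes). Standard errors and 95% intervals come from the same fit, the intervals without adjustment for the number of genes. No replicates were merged, since counts within the 6 same-group pairs differed beyond sampling (chi-square over its degrees of freedom, 16.9 to 44.2). Alternatives were DESeq2 1.42.0, limma-voom (limma 3.58.1), other scalings, no filter, no robust estimation, marker levels as covariates and leaving out each library. The fit was tested on simulated data. Older symbols were matched through RefSeq synonyms. Members and lists were chosen with earlier results of these data known. Named genes were all members and, from each related list, up to 4 called genes by smallest p, or the most abundant where none passed; others were named after their values were seen. Values of some related genes are not reported here.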

Additional observations from a re-analysis of the deposited data

How the results depend on the processing

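In the fit with the acinar covariate, calls over all genes numbered 618 upward and 445 downward, 2 members were higher and 0 lower, and 1 related gene was higher and 3 lower. With the endothelial marker level, 76 and 43 genes, 1 and 0 members, and 0 and 0 related genes were called. The causes were not tested. With upper-quartile factors 2 members were lower. The members' median log2 fold change was 0.16 with upper-quartile factors, 0.23 without the low-count filter and 0.29 with the endothelial level. Over all genes the median was -0.04, 0.04 and -0.02 in the same order, beside -0.01 in the main fit. Leaving out 1 library gave 1153 to 1590 higher and 1225 to 1433 lower genes, 6 to 11 higher and 1 to 1 lower members, 3 to 6 higher and 3 to 6 lower related genes, and a members' median of 0.16 to 0.23. The lowest counts of higher genes, members and related genes came without control library 10, and 4 related genes were higher and 3 lower without knockout library 5. Signs turned only for genes that did not pass in that alternative: Idh3a (-0.021), Idh3g (-0.030) and Mdh2 (-0.013) with the acinar level, Sdha (-0.0077), Nnt (0.0073), Got1 (0.0035), Got2 (-0.010) and Gpt (0.16) with the endothelial level, Sdha (-0.011) and Got2 (-0.0045) with upper-quartile factors, and Got2 without control library 10 (-0.025; 0.079 without control library 7). Without 1 library the log2 ratio of Suclg2 to Sucla2 differed by -0.10 to 0.038, positive without knockout library 4 (0.03) or control library 16 (0.038), and the summed CPM of the members by 743 to 1215. No paired analysis was possible because the groups share no replicate number. Among the members Me3 had the lowest counts and the widest interval.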
